A study of Mus musculus with 26 samples.

Results

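Morphogens are secreted or membrane-bound signals that pattern the embryo, and the genes described here encode such ligands, their receptors and the proteins that carry the signal inside the cell. Members were chosen by name: every probe set that the platform annotation assigned to a single gene whose symbol begins as those of the fibroblast growth factor (FGF), bone morphogenetic protein (BMP), growth differentiation factor, inhibin, transforming growth factor beta (TGF-beta), activin receptor, Smad, Wnt, Frizzled, Dishevelled, Notch, Jagged, Delta-like, platelet-derived growth factor (PDGF), ephrin or Eph genes do. The rule found 123 probe sets for 102 genes, among 7542 probe sets with 1 gene symbol (6137 genes) and 13069 probe sets in all without controls. Of these, 73 were on the A array and 50 on the B array. The pattern also took in 5 genes (6 probe sets) that were set apart as resembling the families by name only: Bmp2k, Fgfr1op2, Fgfbp1, Tgfbi and Tgfb1i1. Bmp1 (2 probe sets), a procollagen protease, was given a role of its own. Fgf11, Fgf12, Fgf13 and Fgf14, which act inside the cell, were counted with the FGF ligands by name.

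RNA came from whole hearts of mouse embryos at embryonic day 12.5. In this mouse line the NK2-specific domain has been deleted from Nkx2.5, a homeobox gene whose product regulates transcription in cardiac progenitors and myocardium, and the labels name no Cre or other agent that would restrict the deletion to a cell type. The wild-type group held 5 hearts (numbered 1, 2, 7, 9 and N1), the heterozygous group 4 (5, 6, 12 and N2), with the domain lost from 1 allele, and the null group 4 (3, 4, 8 and N3), with it lost from both. Each heart was run on an A and a B array. The labels give no strain, litter or sex, so a p-value reflects nothing beyond the spread among these hearts. The A arrays of wild-type heart 1 and heterozygous hearts 6 and N2, and the B arrays of null heart 3 and wild-type hearts 9 and N1, were mostly blank. As a result 20 of the 123 member probe sets had a value in all 13 hearts, and many A members had values in only the heterozygous hearts 5 and 12.

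In the embryonic heart these pathways act between layers. Myocardium sends BMP and TGF-beta ligands to the endocardium, where they help turn endothelial cells of the cushions into the mesenchyme of the valves. Notch receptors act in endocardium and in vascular smooth muscle, FGF and PDGF signals act on the second heart field, the epicardium and its derivatives, and ephrins and Eph receptors are contact signals that, among other roles, separate arteries from veins. Ligands bind a surface receptor. Activin, TGF-beta and BMP receptors then phosphorylate Smad proteins, Frizzled receptors act through Dishevelled, and Notch is itself cut to release a transcriptional coactivator.

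The promoters of 4 members on which the later paragraphs turn are given here, from RefSeq on assembly GRCm38.p6, each running from 250 bases before to 50 bases after the annotated start, 5′ to 3′ on the strand of the gene. For Notch2 (chr3:98013288-98013587, plus strand), Notch3 (chr17:32166841-32167140, minus strand) and Acvr2b (chr9:119401928-119402227, plus strand), the members that differed between hearts of different number ranges, capitals mark the 50 bases from the start on. For Tgfbi (chr13:56609336-56609635, plus strand), capitals mark the letters of the NK2-type homeodomain motif.
Notch2 promoter: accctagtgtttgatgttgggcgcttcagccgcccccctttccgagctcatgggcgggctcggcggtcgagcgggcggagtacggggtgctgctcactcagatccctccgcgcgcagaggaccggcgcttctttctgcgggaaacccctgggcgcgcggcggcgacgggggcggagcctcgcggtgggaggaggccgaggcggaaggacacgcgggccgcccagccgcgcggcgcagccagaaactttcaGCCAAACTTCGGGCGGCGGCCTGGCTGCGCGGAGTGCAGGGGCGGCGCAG
Notch3 promoter: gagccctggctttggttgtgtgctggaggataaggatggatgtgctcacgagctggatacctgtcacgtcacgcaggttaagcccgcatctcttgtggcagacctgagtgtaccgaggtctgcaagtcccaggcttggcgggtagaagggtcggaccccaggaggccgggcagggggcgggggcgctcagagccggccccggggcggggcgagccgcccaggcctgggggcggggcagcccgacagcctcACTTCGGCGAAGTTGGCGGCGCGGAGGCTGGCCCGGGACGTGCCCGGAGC
Acvr2b promoter: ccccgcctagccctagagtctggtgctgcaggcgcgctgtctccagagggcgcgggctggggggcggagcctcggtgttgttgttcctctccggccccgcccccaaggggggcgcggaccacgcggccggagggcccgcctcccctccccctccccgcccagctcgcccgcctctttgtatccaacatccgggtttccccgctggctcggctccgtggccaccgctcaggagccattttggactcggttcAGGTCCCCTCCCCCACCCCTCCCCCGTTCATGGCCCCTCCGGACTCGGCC
Tgfbi promoter: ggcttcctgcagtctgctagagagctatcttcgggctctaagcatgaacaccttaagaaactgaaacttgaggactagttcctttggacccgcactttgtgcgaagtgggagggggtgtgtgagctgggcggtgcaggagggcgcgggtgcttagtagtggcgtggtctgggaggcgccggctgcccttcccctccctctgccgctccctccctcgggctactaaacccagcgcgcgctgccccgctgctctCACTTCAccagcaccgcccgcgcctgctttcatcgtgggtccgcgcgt
The motif searched was TNAAGTG on both strands, which 11.5% of the 32851 promoters of the table hold. The table had a promoter for 78 of the 102 member genes, and 4 of them (Epha6, Fgfbp1, Tgfbi and Wnt3) held a match. Among the 21 member genes above background in the heart, 13 had a promoter in the table, and only that of Tgfbi held a match, which begins at base 3 from the start and lies on the opposite strand. The Notch2, Notch3 and Acvr2b promoters were 73.0%, 70.0% and 73.3% G and C with 41, 25 and 27 CG pairs. Medians over all promoters were 52.7% and 7. Such values were not particular to these genes. Efna2, Efnb2 and Ephb3, not called between the number ranges, had 74.7%, 72.3% and 66.7% with 31, 35 and 23 CG pairs. Fgfr2, Inhba and Pdgfra were lower, at 43.7%, 47.7% and 51.0%.

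Whether a member was expressed was judged against the noise of its array table. The noise was the root mean square of the negative values, and the floor was set at 2 times it, 887 signal units on A and 1373 on B. A probe set was called above background in the heart when it exceeded the floor in at least 4 hearts and in at least 0.5 of the hearts with a value. By this measure 24 of the 123 member probe sets (19.5%), for 21 genes, were above background. The background was 39.7% over the 7542 probe sets with 1 gene symbol. Members lay more often on B, where the floor was higher: 73 were on A and 50 on B. Probe sets with 1 symbol, counted with controls, were 5560 on A and 2001 on B. The part of this array mix in the lower share of members was not tested. Of the remaining 99 member probe sets, 80 exceeded the floor in no heart and 19 in 1 to 3 hearts. Those 19 had medians of 0.247 to 0.993 times the floor, so some lay close to it and others well below. The count depends on the floor: it was 46 with a floor at the noise itself, 50 with a noise estimate from the median negative value (40.7% of members against 57.3% of probe sets with 1 symbol) and 12 when every heart with a value had to exceed the floor. A probe set below the floor has only an upper bound here. In RNA of a whole heart, a ligand made by few cells and one made weakly by many cannot be told apart.

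**Figure D1:**
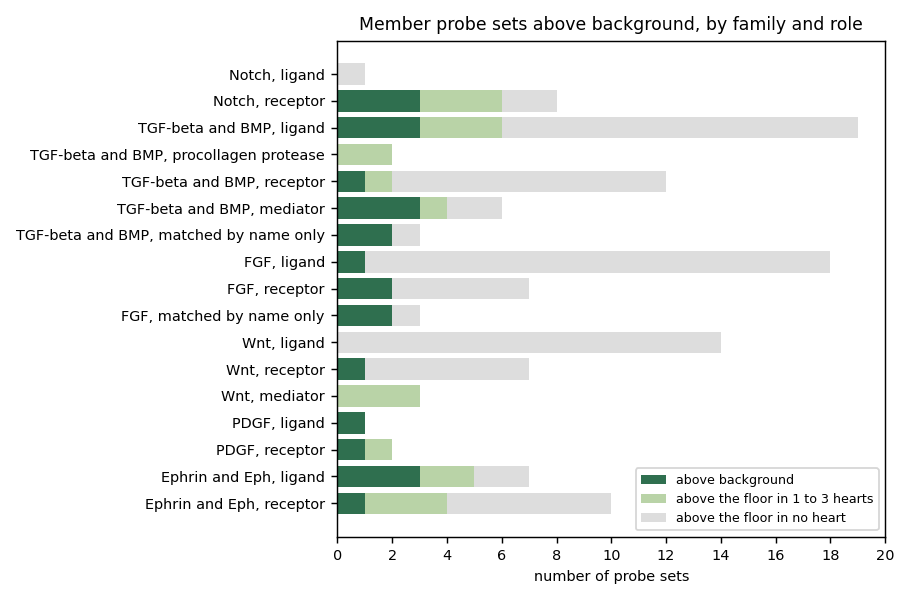
Number of member probe sets (horizontal axis) by family and role. Dark bars are probe sets above background in the heart, pale green bars those above the floor in 1 to 3 hearts, and grey bars those above it in no heart; all 14 Wnt ligand probe sets are grey.

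By role, 8 of 60 ligand probe sets, 9 of 46 receptor probe sets and 3 of 9 mediator probe sets were above background, as were 4 of the 6 matched by name only (the plot of counts by family). Of the 2 Bmp1 probe sets 0 were. The 60 include Fgf11, Fgf12, Fgf13 and Fgf14, none of them above the floor in any heart. The TGF-beta and BMP family had 9 of 42 probe sets above background: the ligands Bmp4, Bmp7 and Inhba, the receptor Acvr2b, the mediators Smad2 and Smad4 (2 probe sets), and Tgfb1i1 and Tgfbi by name. The FGF family had 5 of 28: the ligand Fgf15, the receptors Fgfr1 and Fgfr2, and Fgfr1op2 (2 probe sets). Notch had 3 of 9, all for the receptors Notch2 (2 probe sets) and Notch3. PDGF had 2 of 3, Pdgfa and Pdgfra. Ephrins and Eph receptors had 4 of 17: Efna2, Efnb2, Efnb3 and Ephb3. Wnt signalling had 1 of 24, the receptor Fzd8.

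Many of the best known cardiac signals were not above background on these arrays. None of the 14 Wnt probe sets, for 13 genes, exceeded the floor in any heart. They included Wnt11, a ligand of the noncanonical branch needed in the outflow tract, with a median of 533 over 13 hearts, and Wnt5a, with 204 over 12. The Dishevelled genes stood nearer the floor, with Dvl1, Dvl2 and Dvl3 above it in 3, 1 and 1 of 9 hearts. Among the FGF ligands, Fgf8, Fgf9 and Fgf10, signals of the second heart field and epicardium, had medians of -97.3, -22.9 and 74.9 signal units and exceeded the floor in no heart.

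Among the ligands of the TGF-beta family, Tgfb2, a ligand of the cushions, was above the floor in 3 of 13 hearts with a median of 1097. Bmp6 was above it in none of 13 with a median of 736. Both Bmp2 probe sets, Bmp5 and Tgfb3 were also at or below the floor in every heart with a value. The receptors Acvr1, Acvrl1, Bmpr1a, Bmpr2, Tgfbr1 and Tgfbr2 did not exceed the floor in any heart, with medians from 1.8 for Tgfbr2 to 647 for Bmpr1a, and of the other Smads, Smad1, which carries BMP signals, was above it in 3 of 7 hearts and Smad5 in none of 9. Notch1, the main Notch receptor of the endocardium, exceeded the floor in 2 of 12 hearts with its A probe set and in 1 of 13 with its B probe set. Pdgfrb, the receptor of mural cells, did so in 3 of 13, Efna1 in 3 of 9, and Epha3, an Eph receptor needed in the cushions, in none of 9. With the lower noise estimate, Notch1, Bmpr1a, Bmp6, Tgfb2, Pdgfrb, Smad1, Efna1 and the 3 Dishevelled genes counted as above background. Bmp10, Dll4, Ephb4, Fzd2, Jag1, Pdgfb, Smad6, Smad7, Tgfb1, Tgfbr3 and Wnt2 were not analysed here.

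Probe sets of 1 gene did not always give the same answer. Notch2 had 2 A probe sets above background that were named for 1 and the same sequence, whereas its other A probe set and its B probe set were above the floor in none of 10 hearts each, with medians of 287 and 796. Acvr2b exceeded the floor in 9 of 10 hearts with 1 probe set and in 1 of 10 with the other. Fgfr2 did so in 6 of 9 with 1 probe set and in no heart with its other 3. Fzd8 did so in 9 of 10 with 1 probe set and in 0 of 10 with the other, which had a median of 588. Part of this depends on the floor. With the lower noise estimate the second Acvr2b probe set was above it in 9 of 10 hearts and the Notch2 B probe set in 8 of 10. The second Fzd8 probe set was then above it in 5 of 10. The other Notch2 A probe set and the other 3 of Fgfr2 still did not count as above background.

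Loss of the NK2-specific domain was compared by genotype, for 1 and for both alleles. No member passed the test in any of the 3 comparisons, so no ligand, receptor or mediator was shown to differ between wild-type, heterozygous and null hearts. Null hearts had 8 of the 24 members higher and 16 lower than wild-type hearts, with a median log2 difference of -0.05 beside -0.01 over all 4494 probe sets tested. Heterozygous hearts had 13 higher and 11 lower than wild-type hearts (median 0.05 beside -0.01 over all), and null hearts 10 higher and 14 lower than heterozygous hearts (median -0.05 beside 0.02). These 3 comparisons share their hearts pairwise. The test was limma on log2 of the signal raised to the floor, with Benjamini-Hochberg adjustment over all 4494 probe sets at a threshold of 0.05. It called 0 of 24 members in each comparison, against a background of 0.0223% (1 probe set, not a member) for null against wild type, 0% for heterozygous against wild type and 0% for null against heterozygous. At an unadjusted p under 0.05, 1, 0 and 1 members stood out, as did 108, 152 and 260 of all probe sets. Standard errors of the members' differences were 0.16 to 0.45, with medians of 0.25 against wild type for null hearts and 0.29 in the comparisons with heterozygous hearts, and a missed threshold does not show equal levels.

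**Figure D2:**
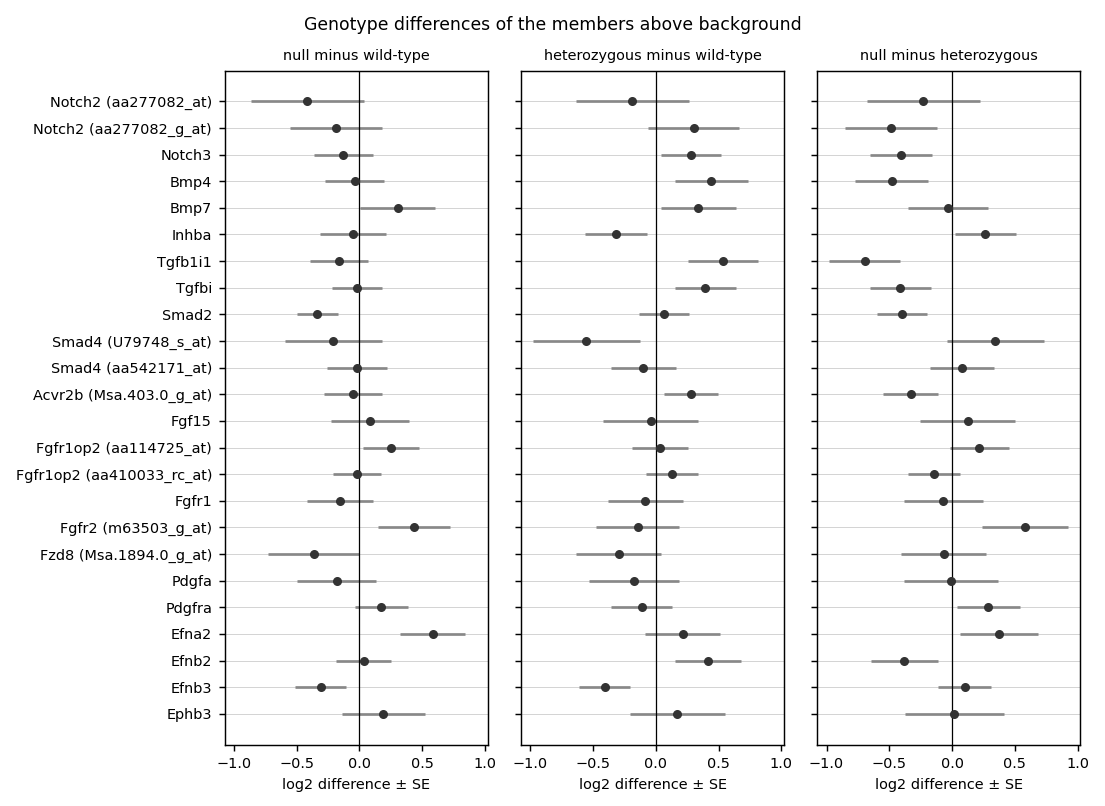
Log2 difference (horizontal axis, points) with its SE (bars) for each of the 24 member probe sets above background, in 3 genotype comparisons. The points lie between -0.70 and 0.58, and none passed the test.

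Bmp4, a ligand of the outflow tract and its cushions, had signals of 1701, 1951, 1202 and 1884 in wild-type hearts 2, 7, 9 and N1, 3073 and 1649 in heterozygous hearts 5 and 12, and 1482, 1906, 1448 and 1655 in null hearts 3, 4, 8 and N3. Heterozygous heart 5 was the highest, and all 3 groups overlapped. Its log2 difference was 0.44 ± 0.29 (SE, limma, adjusted p 0.981) for heterozygous against wild-type hearts, -0.48 ± 0.29 (adjusted p 0.839) for null against heterozygous hearts and -0.04 ± 0.24 for null against wild-type hearts. Within hearts 1 to 6 heterozygous stood above wild type by 0.85, and within hearts 7 to 12 by 0.11.

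Bmp7, a myocardial BMP, measured 2301, 2986, 779, 1592 and 3324 in wild-type hearts 1, 2, 7, 9 and N1, 3481, 3038, 1996 and 2772 in heterozygous hearts 5, 6, 12 and N2, and 3376, 3938, 1809 and 2214 in null hearts 3, 4, 8 and N3. Wild-type heart 7 was the lowest and under the floor, and the groups overlapped. Null minus wild type was 0.31 ± 0.30 (adjusted p 1), with values of 0.48, 0.29 and -0.59 within hearts 1 to 6, 7 to 12 and N, so its direction was not shared by the number ranges. Inhba, the subunit that forms activin A, measured 1874, 1398 and 2996 in wild-type hearts 1, 2 and 7, 2133, 902, 1390 and 1596 in heterozygous hearts 5, 6, 12 and N2, and 1802, 1909 and 2047 in null hearts 4, 8 and N3. Wild-type heart 7 was the highest, heterozygous heart 6 the lowest, and the groups overlapped. Heterozygous minus wild type was -0.32 ± 0.24 (adjusted p 0.981), with 0.08 within hearts 1 to 6 and -1.11 within hearts 7 to 12, and it was -0.02 when wild-type heart 7 was left out and -0.57 when wild-type heart 2 was left out.

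Acvr2b, a type II receptor for activins and related ligands, measured 1505, 1505 and 2108 in wild-type hearts 1, 2 and 7, 1785, 1596, 2792 and 2191 in heterozygous hearts 5, 6, 12 and N2, and 1238, 1695 and 1840 in null hearts 4, 8 and N3. Heterozygous heart 12 was the highest and null heart 4 was under the floor. Null minus wild type was -0.05 ± 0.23 and heterozygous minus wild type 0.28 ± 0.22, and the groups overlapped.

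Smad2, which carries activin and TGF-beta signals, had the smallest p-values of the mediators in both comparisons with null hearts. Its signals were 1374, 1149, 1652 and 1407 in wild-type hearts 2, 7, 9 and N1, 1408 and 1490 in heterozygous hearts 5 and 12, and 966, 1308, 1066 and 1078 in null hearts 3, 4, 8 and N3. Null heart 4 lay among the wild-type values, while the other 3 null hearts were below every wild-type heart, and all 4 null hearts were below both heterozygous hearts. Null hearts averaged 1104 ± 145 (SD, n = 4) and wild-type hearts 1396 ± 206 (SD, n = 4). The log2 difference was -0.33 ± 0.16 (SE, adjusted p 1) for null against wild type and -0.40 ± 0.20 (adjusted p 0.79) for null against heterozygous hearts. It was -0.29, -0.37 and -0.38 for null against wild type within hearts 1 to 6, 7 to 12 and N. The test did not separate it from 0 after adjustment.

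Smad4, the partner shared by all receptor-regulated Smads, had 1833, 2302, 1954 and 2686 in wild-type hearts 2, 7, 9 and N1, 1663, 2047 and 2445 in heterozygous hearts 5, 12 and N2, and 1744, 1536, 2781 and 2814 in null hearts 3, 4, 8 and N3 with its better measured probe set. The genotypes overlapped, and null minus wild type was -0.02 ± 0.24. Its second probe set had 7 values in all, of which null heart 3 and heterozygous heart 5 were under the floor, and heterozygous minus wild type was -0.55 ± 0.42 (adjusted p 0.981) with 2 values in each group.

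Tgfb1i1 and Tgfbi match the family by name. Tgfb1i1 encodes a focal adhesion adaptor and Tgfbi a secreted matrix protein, and TGF-beta induces both. Tgfb1i1 measured 3352, 3648, 2930 and 3178 in wild-type hearts 2, 7, 9 and N1, 3694 and 6063 in heterozygous hearts 5 and 12, and 1857, 3026, 3666 and 3530 in null hearts 3, 4, 8 and N3. Both heterozygous hearts were above every wild-type and every null heart. Null minus heterozygous was -0.70 ± 0.28 (SE, unadjusted limma p 0.0269, adjusted p 0.774), and heterozygous minus wild type was 0.53 ± 0.28 (adjusted p 0.981). The first was -0.64 and -0.73 within hearts 1 to 6 and 7 to 12. Tgfbi measured 3296, 2495, 2650 and 2859 in wild-type hearts 2, 7, 9 and N1, 4472 and 3049 in heterozygous hearts 5 and 12, and 2295, 3026, 2399 and 3552 in null hearts 3, 4, 8 and N3, with overlapping groups. Heterozygous minus wild type was 0.39 ± 0.24 and null minus heterozygous -0.41 ± 0.24 (adjusted p 0.981 and 0.838).

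**Figure D3:**
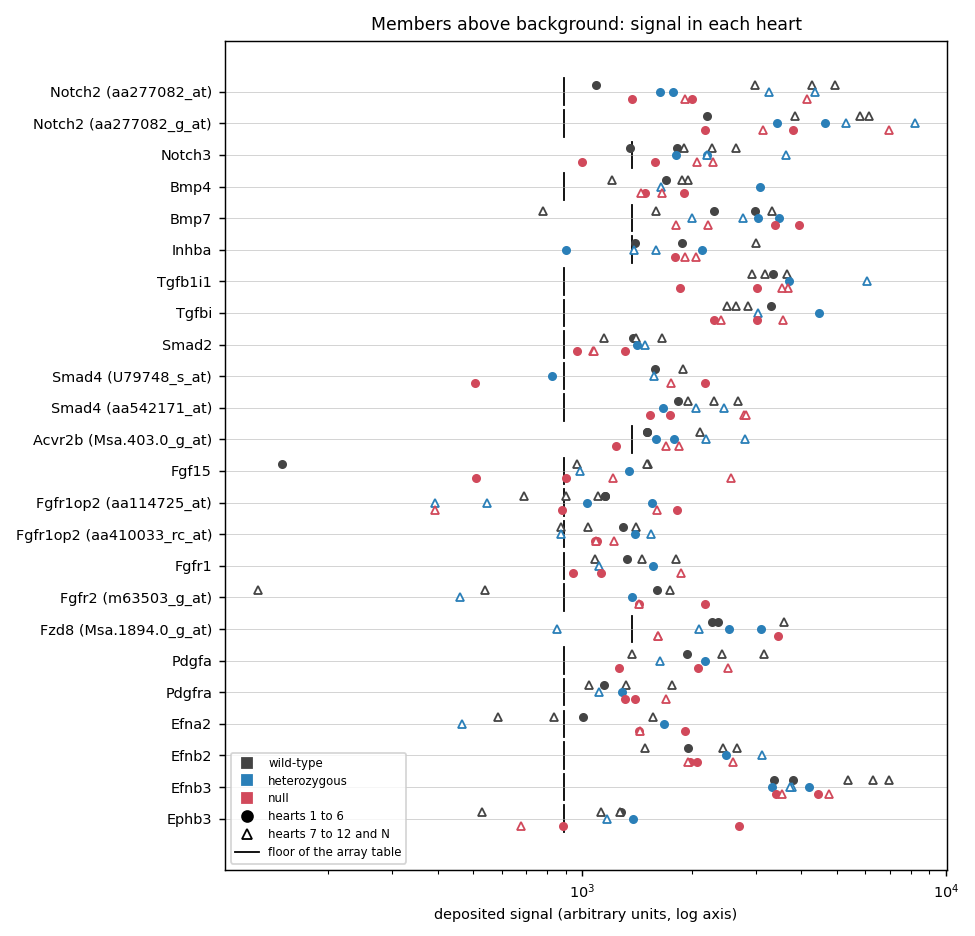
Deposited signal (horizontal log axis) of the 24 member probe sets above background in each heart with a value. Colour gives the genotype, filled circles are hearts 1 to 6, open triangles hearts 7 to 12 and N, and short black lines the floor (887 on A, 1373 on B); the genotypes overlap in most rows, and the Notch2 triangles lie mostly right of the circles.

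In the FGF family, Fgf15, the mouse counterpart of human FGF19 and a ligand made in the pharyngeal arches, measured 149, 1518, 1507 and 968 in wild-type hearts 2, 7, 9 and N1, 1344 and 986 in heterozygous hearts 5 and 12, and 899, 509, 2556 and 1212 in null hearts 3, 4, 8 and N3. Null heart 8 was the highest and wild-type heart 2 the lowest, and the groups overlapped. Null minus wild type was 0.08 ± 0.31. Fgfr1, a receptor of the mesenchyme, measured 1323, 1456, 1086 and 1814 in wild-type hearts 2, 7, 9 and N1, 1565 and 1110 in heterozygous hearts 5 and 12, and 941, 1123 and 1871 in null hearts 3, 4 and N3. Its groups overlapped too, and null minus wild type was -0.15 ± 0.26.

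Fgfr2 is a receptor for several FGFs of the heart and foregut. Its single probe set above background measured 1604, 539, 128 and 1739 in wild-type hearts 2, 7, 9 and N1, 1367 and 460 in heterozygous hearts 5 and 12, and 1431, 2171 and 1434 in null hearts 3, 4 and N3. The wild-type hearts split, with hearts 7 and 9 under the floor and hearts 2 and N1 at the level of the null hearts, and the 3 null values were above both heterozygous values. Null minus wild type was 0.44 ± 0.29 (adjusted p 1) and null minus heterozygous 0.58 ± 0.35 (adjusted p 0.839). The first was 0.14 within hearts 1 to 6 and -0.28 within the N hearts, so its direction was not shared, and it was 0.02 with number range as a block, 0.24 without null heart 4 and 0.93 with the noise, and so the floor, taken from the median negative value. The second was 0.18 with the block and 1.05 with that noise estimate. Fgfr1op2, a fusion partner of FGFR1 in human leukaemia and a family member by name only, gave a null minus wild-type difference of 0.25 ± 0.22 (adjusted p 1) with 1 probe set and -0.02 ± 0.19 with the other. The first was 0.13, -0.17 and 0.86 within hearts 1 to 6, 7 to 12 and N, and 0.03 with the same noise estimate.

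Pdgfa signals to Pdgfra, the receptor of mesenchymal and epicardium-derived cells. Pdgfa measured 1938, 3152, 1366 and 2426 in wild-type hearts 2, 7, 9 and N1, 2170 and 1634 in heterozygous hearts 5 and 12, and 1259, 2076 and 2516 in null hearts 3, 4 and N3. Pdgfra measured 1143, 1320, 1044 and 1767 in wild-type hearts 2, 7, 9 and N1, 1285 and 1110 in heterozygous hearts 5 and 12, and 1311, 1394 and 1693 in null hearts 3, 4 and N3. Null and wild-type hearts overlapped for both, with log2 differences of -0.18 ± 0.31 and 0.17 ± 0.21. The 3 null values of Pdgfra were above both heterozygous values, with a log2 difference of 0.29 ± 0.25 (SE, limma adjusted p 0.88). With 2 heterozygous values a lack of overlap carries little weight, for this and other members, and its share over all probe sets is not given here.

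Ephrins are membrane-bound ligands. Efna2, attached by a lipid anchor, had the smallest member p-value for null against wild type. It measured 1001, 835, 1560 and 585 in wild-type hearts 2, 7, 9 and N1, 1679 and 466 in heterozygous hearts 5 and 12, and 1430, 1909 and 1437 in null hearts 3, 4 and N3. All 3 null hearts exceeded the floor, against 2 of 4 wild-type hearts, of which heart 9 lay within the null range. Null hearts averaged 1592 ± 274 (SD, n = 3) and wild-type hearts 995 ± 414 (SD, n = 4). The log2 difference was 0.58 ± 0.26 (SE, unadjusted limma p 0.0438, adjusted p 1). It was 0.72 within hearts 1 to 6 (2 null, 1 wild-type) and 0.70 within the N hearts (1 of each, with the wild-type value raised to the floor). No null heart of 7 to 12 had a value, so wild-type heart 9 entered neither.

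Efnb3, a transmembrane ephrin, was measured in every heart, at 3787, 3363, 6290, 6953 and 5384 in wild-type hearts 1, 2, 7, 9 and N1, 4197, 3325, 3765 and 3731 in heterozygous hearts 5, 6, 12 and N2, and 3410, 4458, 4775 and 3551 in null hearts 3, 4, 8 and N3. Wild-type hearts 7, 9 and N1 were above all other hearts, while wild-type hearts 1 and 2 lay within the range of the mutants. On the log2 scale the difference was -0.41 ± 0.20 (adjusted p 0.981) for heterozygous and -0.31 ± 0.20 (adjusted p 1) for null against wild-type hearts. Within hearts 1 to 6 these were 0.07 and 0.13, within hearts 7 to 12 -0.81 and -0.47, and among the N hearts -0.53 and -0.60, so the earlier hearts did not share the direction.

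Efnb2, the ligand of arterial endothelium, measured 1956, 2429, 1486 and 2659 in wild-type hearts 2, 7, 9 and N1, 2478 and 3112 in heterozygous hearts 5 and 12, and 2064, 1980, 1948 and 2598 in null hearts 3, 4, 8 and N3. The groups overlapped, and heterozygous minus wild type was 0.42 ± 0.27 (adjusted p 0.981). Ephb3, a receptor for B-type ephrins, measured 1274, 1267, 1127 and 530 in wild-type hearts 2, 7, 9 and N1, 1382 and 1166 in heterozygous hearts 5 and 12, and 886, 2698 and 678 in null hearts 3, 4 and N3. Null heart 4 stood above all others while the other null hearts were under the floor, and null minus wild type was 0.19 ± 0.33. Fzd8 was the single Wnt receptor above background, with 1 probe set but not with the other. The former measured 2267, 2356 and 3579 in wild-type hearts 1, 2 and 7. It measured 2534, 3097, 850 and 2090 in heterozygous hearts 5, 6, 12 and N2, and 3450, 1616 and 1610 in null hearts 4, 8 and N3. Heterozygous heart 12 was under the floor, the groups overlapped, and null minus wild type was -0.36 ± 0.36, with 0.58 within hearts 1 to 6 and -1.15 within hearts 7 to 12.

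Notch2 and Notch3 differed between hearts of different number ranges, and neither was called by genotype. For Notch2 this rests on the 2 probe sets named for 1 sequence. Its other A probe set and its B probe set, above the floor in no heart, were not tested. Hearts numbered 7 to 12 and N (the later hearts, 7) were compared with hearts numbered 1 to 6 (the earlier hearts, 6), with genotype in the model. What the numbers stand for is not in the labels, and the split was taken from earlier results of these data. In all, 4 members were called, each of them higher in the later hearts: both Notch2 probe sets above background, Notch3 and Acvr2b. The 4 of 24 stand against a background of 7.14% of all 4494 probe sets called (321), and of 3.87% called higher (174).

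Notch2, a receptor active in vascular smooth muscle, had signals of 1091, 4963, 4279 and 2987 in wild-type hearts 2, 7, 9 and N1, 1632, 1777, 3255 and 4356 in heterozygous hearts 5, 6, 12 and N2, and 2006, 1371, 4145 and 1915 in null hearts 3, 4, 8 and N3 with its first probe set. All later hearts but null heart N3 were above every earlier heart. The lowest, median and highest signals were 1091, 1632 and 2006 in the 5 earlier hearts with a value and 1915, 4145 and 4963 in the 7 later hearts. The log2 difference was 1.20 ± 0.23 (SE, limma adjusted p 0.0107), and within the genotypes it was 1.87 in wild-type (1 earlier heart), 1.15 in heterozygous and 0.76 in null hearts.

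The probe set of the same sequence gave 2198, 6133, 5816 and 3849 in wild-type hearts 2, 7, 9 and N1, 3425, 4645, 5321 and 8200 in heterozygous hearts 5, 6, 12 and N2, and 3786, 2175, 6959 and 3130 in null hearts 3, 4, 8 and N3. Here wild-type heart N1 and null heart N3 lay within the range of the earlier hearts. The log2 difference was 0.86 ± 0.22 (SE, adjusted p 0.0358), and 1.23, 0.73 and 0.70 in wild-type, heterozygous and null hearts. By genotype, null minus wild type was -0.42 ± 0.45 with the first probe set and -0.19 ± 0.36 with the second, both overlapping. The null minus wild-type values of the first probe set were 0.60, -0.15 and -0.64 within hearts 1 to 6, 7 to 12 and N.

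Notch3, the receptor of vascular smooth muscle and pericytes, measured 1351, 1820, 2266, 1905 and 2644 in wild-type hearts 1, 2, 7, 9 and N1, 1810, 2198, 2194 and 3633 in heterozygous hearts 5, 6, 12 and N2, and 1581, 995, 2066 and 2282 in null hearts 3, 4, 8 and N3. The 7 later hearts ranged from 1905 to 3633 with a median of 2266, and the 6 earlier hearts from 995 to 2198 with a median of 1695. Only the earlier heterozygous heart 6 reached the later range. Later minus earlier was 0.52 ± 0.14 (SE, adjusted p 0.0403), and 0.51, 0.50 and 0.56 in wild-type, heterozygous and null hearts. Without the N hearts the first value was 0.35 (adjusted p 0.144). By genotype, null minus heterozygous was -0.41 ± 0.25 (adjusted p 0.839), and -0.20 without heterozygous heart N2.

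Acvr2b, whose signals are given above, ranged from 1695 to 2792 with a median of 2108 in the 5 later hearts with a value and from 1238 to 1785 with a median of 1505 in the 5 earlier ones. Later null heart 8 alone fell within the earlier range. Later minus earlier was 0.48 ± 0.12 (SE, adjusted p 0.0404), and 0.49, 0.55 and 0.36 in wild-type, heterozygous and null hearts. Smad4 and Bmp7 came next without passing. With its better measured probe set Smad4 was higher in all 7 later hearts than in all 4 earlier hearts with a value, by 0.54 ± 0.16 (adjusted p 0.0584). Its second probe set did not separate them, with 508 to 2168 in 4 earlier and 1572 to 1890 in 3 later hearts (0.46 ± 0.30, adjusted p 0.373). Bmp7 gave -0.58 ± 0.20 (adjusted p 0.089), with hearts 7 to 12 lowest.

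**Figure D4:**
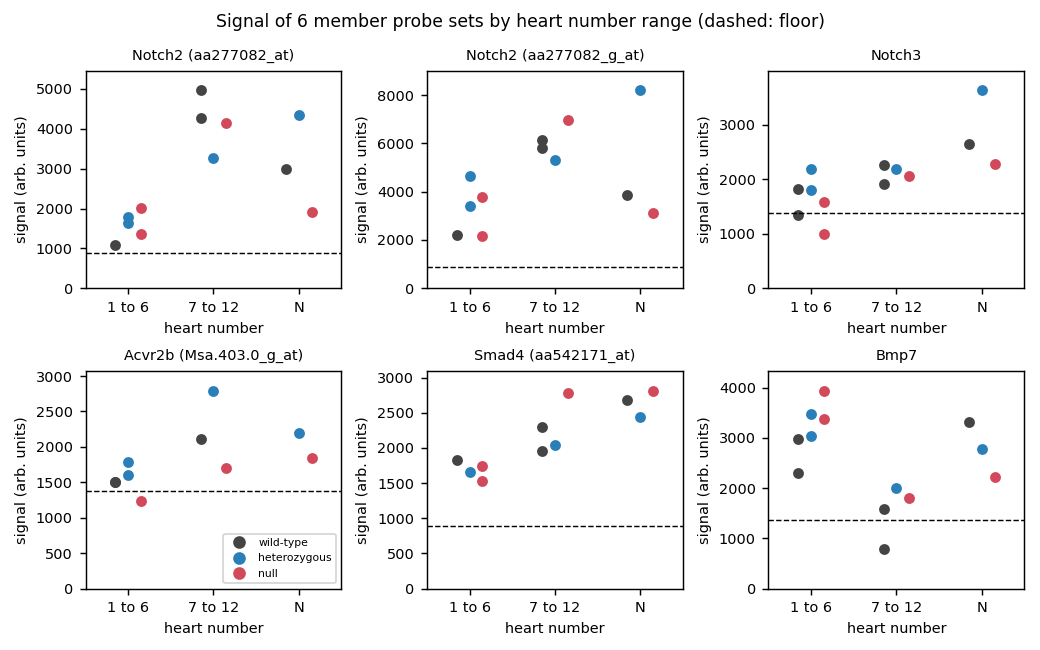
Signal (vertical axis, from 0) of 6 member probe sets in hearts numbered 1 to 6, 7 to 12 and N (horizontal axis), with points coloured by genotype and the floor dashed. Notch2, Notch3, Acvr2b and Smad4 lie mostly lower in hearts 1 to 6, and Bmp7 is lowest in hearts 7 to 12.

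These 4 calls rested on few hearts. Without wild-type heart 2 no member was called, and the first Notch2 probe set then gave 0.96 with an adjusted p of 0.0639. One member was called without heterozygous heart 5, null heart 4 or null heart 8, and 2 without wild-type heart 1, wild-type heart 7, heterozygous heart N2 or null heart N3. Quantile scaling of the arrays left 1, the first Notch2 probe set at 1.13 with an adjusted p of 0.0157. Without the mostly blank arrays 2 were called, and without the N hearts 3.

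Other genes of the same pathways were read from lists of 121 genes, chosen with results of these data known. Of these, 67 were measured and 30, with 32 probe sets, were tested. None was called by genotype, with medians of -0.03 for null against wild type, 0.11 for heterozygous against wild type and -0.16 for null against heterozygous. Between later and earlier hearts 5 of 32 probe sets were higher and 0 lower, beside 7.14% called and 3.87% called higher over all probe sets tested. They were Eng, a co-receptor for TGF-beta and BMP in endothelium (0.81 ± 0.14, SE, adjusted p 0.00658), the Wnt effector Tcf7l1 (0.77 ± 0.22, adjusted p 0.0466), the corepressor Tle5 (0.65 ± 0.11, adjusted p 0.00496), the heparan sulfate proteoglycan Gpc1 (0.63 ± 0.15, adjusted p 0.0245) and Glg1, an FGF-binding Golgi protein (0.97 ± 0.16, adjusted p 0.00525, with a second probe set at 0.57 ± 0.22). None of the Notch list passed, with 0 of 6 probe sets called. None of the 6 measured hedgehog genes, Shh, Ihh, Dhh, Ptch1, Gli2 and Gli3, was above background.

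Markers of cell types were read in the same hearts. All 7 measured cardiomyocyte and all 7 cushion mesenchyme markers were above background, as were 5 of 7 endothelial, 4 of 5 epicardial and 3 of 4 smooth muscle markers. None of 4 liver and none of 3 lung and foregut markers was. No marker was called by genotype. Between later and earlier hearts, beside the Notch2 and Notch3 calls, the endothelial marker Tie1 was higher (0.59 ± 0.12, limma adjusted p 0.0116, 1 of 6 endothelial probe sets tested). The rest of that list was mixed and not called, with Cdh5 at 0.37, Tek 0.21, Emcn 0.05, Kdr -0.25 and Pecam1 -0.30. Of the smooth muscle probe sets 0 of 3 was called. The epicardial Wt1 was higher (0.75 ± 0.15, limma adjusted p 0.0114, 1 of 5). In its list Krt19 gave 0.26, Upk3b 0.08 and Tcf21 -0.08 and -0.15, none of them called. In the cushion mesenchyme list Lum and 1 Col1a2 probe set were higher and 1 Vcan probe set lower (2 and 1 of 13). Further Col1a2 probe sets gave 0.65 ± 0.25 and 0.43 ± 0.22 (adjusted p 0.131 and 0.252), and the second Vcan probe set -0.10 ± 0.16 (adjusted p 0.743). In the cardiomyocyte list 2 probe sets of Myl2 were lower (2 of 10). The erythroid marker Alas2 was higher (1.29 ± 0.31, limma adjusted p 0.0328, 1 of 5 called). The globins of that list were not called, and Hbb-y (-0.42 ± 0.12 and -0.98 ± 0.40) and Hba-x (-0.53 ± 0.16) were lower, Hbb-bh1 0.11 ± 0.25. The skeletal muscle marker Myog was lower (-0.88 ± 0.14, limma adjusted p 0.00525, 1 of 4 called). In its list Ckm gave 0.63 ± 0.26 and 0.75 ± 0.26 and Tnni2 -0.34 ± 0.30, none of them called. No probe set of the leukocyte and the neuron and glia lists was called. Of the genes measured, 4 of 6 erythroid, 3 of 5 skeletal muscle, 3 of 4 leukocyte and 1 of 4 neuron and glia markers were above background. These marker counts stand beside the same 7.14% over all probe sets tested. The summed signal of the 2 endothelial probe sets with values in every heart was 4652 to 8294 in earlier and 7229 to 10379 in later hearts, that of the 3 cardiomyocyte probe sets 152093 to 293924 and 54674 to 245131, and that of the single smooth muscle probe set 43592 to 73958 and 30459 to 65340. The part of these markers in the Notch and Acvr2b differences was not tested.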

How the data were processed

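Total RNA of 13 hearts was measured on 26 oligonucleotide arrays, an A and a B array per heart. The deposited values were linear intensities, 1 per probe set, and the software that made them is not given in the sources used here. They include negative values (10.1% to 17.1% of an A array, 24.4% to 29.5% of a B array), and where an array has no blank cells (7 A and 9 B arrays) the authors' values between the 2 and 98 percentiles average 1500, so background had been subtracted and arrays scaled before deposit. Blank cells were treated as missing. No 2 of the arrays of a design shared more than 0.0812% of their values.

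Gene symbols came from the platform annotation, updated by gene ID in RefSeq (all 73 A and 50 B members matched). Values under 2 times the noise were raised to that floor, and log2 values were fitted with limma 3.58.1 in R 4.3.3, 1 fit per array table with a variance trend and all genotypes, two-sided, adjusted by Benjamini-Hochberg over both tables. Tested probe sets had 4 or more arrays above the floor and 2 or more values in each genotype. Later and earlier hearts were compared with genotype in the model. Differences within number ranges are plain differences of means of log2 values, with 1 or 2 hearts on each side. With 13 hearts, the precision of each value is limited by their number.

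Members, lists and the number range split were chosen with earlier results of these data known. Named with a difference were members past the threshold and the 6 of smallest p in each genotype comparison; named by level were the 3 of highest median signal in each family and a fixed list of cardiac signals. Other members above background were added with their values so that each is accounted for. Alternatives were other scalings, floors, noise estimates and filters, no variance trend, leaving out mostly blank arrays, single hearts or the N hearts, and number range as a block. Signals of different probe sets were ranked only to choose the names and summed only for the marker lists, and no difference in level between genes is read from them.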

Additional observations from a re-analysis of the deposited data

Results flagged for a closer look

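Of 43 groups of 4 or more hearts, over the 24 members above background, 1 held a heart that stood apart from the rest by Dixon's criterion, where chance flags about 1 in 20. It was the second probe set of Fgfr1op2, at 1218.1 in null heart N3, against 1094.1 in the next and 1080.4 in the lowest of the 4 null hearts, a gap of 0.901 of the range. Wild-type hearts ranged from 871 to 1401 with the same probe set.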

How the results depend on the processing

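Members called by genotype stayed at 0 in all 3 comparisons under every alternative run. Only 11 members could be tested without heterozygous heart 5, and 11 without heterozygous heart 12. Members above background (24) numbered 46 with the floor at 1 times the noise, 50 with the noise from the median negative value and 12 when every heart with a value had to exceed the floor. For null against wild type, 1 probe set was called among all; there were 0 with quantile scaling, with no filter on low values and without mostly blank arrays, 2 with the floor at 1 times the noise, with the other noise estimate and with the filter at 0.5 of the arrays, 4 with number range as a block, and 0 to 3 when single hearts were left out. For null against heterozygous hearts the block gave 1. Between later and earlier hearts the 321 probe sets became 135 with quantile scaling, 198 with no filter and 192 without mostly blank arrays, and 103 to 342 with single hearts left out. The 4 members became 1 with quantile scaling, 2 with the lower floor, the other noise estimate, no filter or no mostly blank arrays, and 0 to 5 with single hearts left out. Fewer samples or a changed number of probe sets tested are part of the filter and leave-out settings; for scaling and floor the cause was not tested. The differences of named members kept their sign in all 460 repeats that could be fitted, and in 41 of them a call between later and earlier hearts was lost. For Bmp4, Efna2, Efnb2, Fgfr2, Smad2, Tgfb1i1 and Tgfbi the repeats include none without heterozygous heart 5 or 12. These members had heterozygous values in those hearts alone, so the weight of either heart in their differences was not tested. Sizes moved: Fgfr2 null minus wild type ran from 0.02 to 0.93 (number range as a block, other noise estimate), Fgfr2 null minus heterozygous from 0.18 to 1.05, Fgfr1op2 null minus wild type from 0.03 to 0.41, Bmp7 null minus wild type from 0.12 to 0.50 and Inhba heterozygous minus wild type from -0.57 to -0.02. None of the 52 median signals moved by 1 SD or more. No paired analysis was possible because the genotypes share no heart number. Signals under the floor limit what can be read for 99 of the 123 members.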
